A study of Mus musculus with 8 samples.

Results

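Described here are 10 genes tied to the restraint of vessel growth, namely Thbs1, Thbs2, Thbs3, Thbs4, Cd36, Cd47, Serpinf1, Vash1, Vash2 and Sparc, in the naive cornea of BALB/cN and C57BL/6N mice. They were chosen by name, and each symbol matched exactly 1 row among the 54532 genes of the expression table. The study sought genes behind the strain difference in the lymphatic vessels of the cornea and compared total RNA from 4 BALB/cN and 4 C57BL/6N corneas. All sequenced mice were male, their corneas were untreated, and no transgene or agent is named for either strain. The study's methods give an age range for the phenotyped mice of the parental strains but no age for the sequenced ones, nor is it stated which mouse each cornea came from, so the p-values measure only the spread between these corneas. Values are the authors' regularized log (rlog) values, which are on a log2 scale and normalized for library size. The transformation pulls a gene's values towards their mean when few reads were counted, so that differences of weakly expressed genes are understated. The table holds no counts, and the depth of each cornea was not worked out here.

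The healthy cornea is kept free of blood and lymphatic vessels, and secreted inhibitors are part of what keeps it so. Thrombospondins are multidomain glycoproteins of the extracellular matrix. Thbs1 and Thbs2 form trimers with type 1 repeats that bind the scavenger receptor CD36, and their C-terminal part binds CD47. Thbs3 and Thbs4 form pentamers without these repeats, and Thbs4 has also been described as favouring vessel growth. Serpinf1 encodes pigment epithelium-derived factor (PEDF), a secreted serpin that does not inhibit proteases and that holds back endothelial cells. Vash1 encodes vasohibin-1, a carboxypeptidase that removes the terminal tyrosine of alpha-tubulin together with the small chaperone SVBP and that acts as a feedback inhibitor made by endothelium. Vash2 encodes its paralog, which is known rather for promoting vessel growth. Sparc encodes osteonectin, a collagen-binding matricellular protein.

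Promoter windows of the members are shown because 4 of them, Thbs2, Thbs4, Serpinf1 and Sparc, rose and fell together from cornea to cornea, whereas Cd47 differed between the strains. RefSeq (GRCm38.p6) gave a window for 9 of the 10 members, running from 250 bases before to 50 bases after the transcription start, and Thbs1 had no entry. The windows are chr17:14694213-14694512 (minus strand) for Thbs2, chr13:92794769-92795068 (minus) for Thbs4, chr11:75422574-75422873 (minus) for Serpinf1, chr11:55420031-55420330 (minus) for Sparc and chr16:49855404-49855703 (plus) for the first-listed start of Cd47. They are sequences of the C57BL/6J reference, so bases in BALB/cN may differ. The windows of Sparc and Cd47 lie wholly inside the annotated gene spans given below, downstream of the outermost start of each gene. Capitals mark matches on either strand to the TATA box TATAAA, the GC box GGGCGG, the CCAAT box CCAAT and the AP-1 site TGANTCA, and no match overlaps another.
Thbs2: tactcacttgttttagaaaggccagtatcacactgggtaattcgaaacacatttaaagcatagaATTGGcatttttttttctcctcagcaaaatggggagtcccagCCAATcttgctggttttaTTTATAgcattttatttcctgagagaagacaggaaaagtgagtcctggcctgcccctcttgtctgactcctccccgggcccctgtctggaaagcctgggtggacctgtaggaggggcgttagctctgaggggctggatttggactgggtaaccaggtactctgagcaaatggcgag
Thbs4: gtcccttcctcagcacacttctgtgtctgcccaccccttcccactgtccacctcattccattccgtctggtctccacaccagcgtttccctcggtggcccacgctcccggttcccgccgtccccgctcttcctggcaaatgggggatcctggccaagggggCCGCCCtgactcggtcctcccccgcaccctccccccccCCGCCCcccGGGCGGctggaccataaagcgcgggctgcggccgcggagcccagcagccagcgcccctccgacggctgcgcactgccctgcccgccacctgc
Serpinf1: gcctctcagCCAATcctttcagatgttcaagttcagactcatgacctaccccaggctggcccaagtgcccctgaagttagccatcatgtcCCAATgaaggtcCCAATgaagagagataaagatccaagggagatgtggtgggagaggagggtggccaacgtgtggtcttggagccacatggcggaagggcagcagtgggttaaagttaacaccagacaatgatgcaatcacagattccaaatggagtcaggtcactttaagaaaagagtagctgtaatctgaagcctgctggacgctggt
Sparc: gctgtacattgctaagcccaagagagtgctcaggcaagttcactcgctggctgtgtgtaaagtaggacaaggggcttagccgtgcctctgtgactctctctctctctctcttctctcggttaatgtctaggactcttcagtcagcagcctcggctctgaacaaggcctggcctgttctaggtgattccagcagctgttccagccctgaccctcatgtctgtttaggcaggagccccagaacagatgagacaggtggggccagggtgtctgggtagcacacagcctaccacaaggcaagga
Cd47: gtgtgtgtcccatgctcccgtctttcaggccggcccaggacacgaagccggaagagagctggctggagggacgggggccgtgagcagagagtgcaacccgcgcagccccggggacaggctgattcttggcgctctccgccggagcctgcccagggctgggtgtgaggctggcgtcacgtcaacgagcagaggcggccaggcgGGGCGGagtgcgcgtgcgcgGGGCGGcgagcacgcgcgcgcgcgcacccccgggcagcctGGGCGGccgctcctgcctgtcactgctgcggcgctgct

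No motif was present in all 4 windows of genes that moved together, though Thbs2 and Serpinf1 both held CCAAT boxes. Thbs2 held a TATA box on the opposite strand and 2 CCAAT boxes, Thbs4 held 3 GC boxes, Serpinf1 held 3 CCAAT boxes, and Sparc matched none of these letters. Cd47 held 3 GC boxes. Over all 32851 RefSeq promoter windows of 300 bases, 13.6% held the TATA box, 35.7% the GC box, 37.4% the CCAAT box and 7.81% the AP-1 site. The bases G and C made up 72.0% of the window in Thbs4 and 74.0% in Cd47, against 48.3% in Thbs2, 50.7% in Serpinf1 and 55.3% in Sparc. A match describes the letters only, and a window without one says nothing of the factor that binds such a site.

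The corneas differed in how much stromal RNA they held, and this touches most of the members. The mean rlog value of 10 genes of stromal keratocytes (Kera, Lum, Dcn, Ogn, Col1a1, Col1a2, Col5a1, Col6a1, Cd34 and Fmod) was 13.39, 11.71, 13.32 and 13.38 in BALB/cN replicates 1 to 4 and 13.68, 13.63, 10.82 and 10.94 in C57BL/6N replicates 1 to 4. BALB/cN replicate 2 and C57BL/6N replicates 3 and 4 were therefore low in stromal RNA, and the stromal mean ranged over 1.68 in BALB/cN and 2.86 in C57BL/6N. The same 3 corneas were the lowest in 5 genes of the corneal endothelium (11.44, 11.26 and 11.05, against 12.07 to 12.40 in the others) and in 9 macrophage genes (6.06, 5.91 and 5.88, against 6.59 to 6.85), so a gene that follows these corneas is not thereby tied to the stroma alone. The mean of 8 genes of the corneal epithelium, which checks the labelled tissue, lay between 16.7 and 17.0 in all corneas. BALB/cN replicates 1 and 4 stood apart by lens genes (7.34 and 6.82, against 4.88 to 5.36 in the other 6 corneas) and by pigment cell genes (8.40 and 9.16, against 4.90 to 6.93). The same 2 corneas were the highest in genes of pericytes and smooth muscle (7.79 and 8.38, against 5.03 to 6.35) and of blood endothelium (4.92 and 5.51, against 4.08 to 4.43). Conjunctiva genes averaged 6.75 to 7.29 in BALB/cN and 7.32 to 7.56 in C57BL/6N, but the list was split. Of its 5 genes 3 (Krt13, Krt4 and Krt19) were called lower in BALB/cN. Krt8 (4.23 to 4.49 against 3.90 to 4.07) and Muc5ac (5.21 to 7.80 against 4.35 to 4.51) were higher in every BALB/cN cornea, without a call. Of 5 genes each, adipocyte genes Adipoq, Cidec and Cfd, the platelet gene Gp9 and the lymphatic gene Ccl21a were listed at 0 in every cornea. In whole corneas, fewer cells of a type and less RNA per cell cannot be told apart.

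Per length, the members fell into a high and a low set. As rlog value minus log2 of the exon length in kb, the mean level over 8 corneas was 11.84 for Sparc, 10.61 for Serpinf1, 10.40 for Thbs4, 9.73 for Thbs1, 8.78 for Cd47 and 8.20 for Thbs2. It was 4.90 for Thbs3, 2.54 for Vash1, 1.0 for Cd36 and 0.53 for Vash2. The matrix proteins Sparc, PEDF and the thrombospondins other than Thbs3 thus led, together with the receptor Cd47, while the receptor Cd36 and both vasohibins were near the low end. Neighbours in this order kept their places in 8 of 8 corneas, except that Serpinf1 was above Thbs4 in 6 of 8 corneas and Cd47 above Thbs2 in 6 of 8, so those 2 pairs did not differ beyond their spread. In the C57BL/6N corneas low in stromal RNA, Serpinf1 was below Thbs4, with a gap of down to -0.50 on the log2 scale per kb, and in the C57BL/6N corneas rich in it Cd47 was below Thbs2, with a gap of down to -0.58. The mean rlog values of Vash1, Cd36 and Vash2 correspond to about 15.1, 7.19 and 6.22 normalized reads per cornea, where the transformation shrinks differences most. There it pulls each cornea's value towards the gene's own mean. The order of these genes in 8 of 8 corneas is therefore partly built in and does not show that they differ beyond counting noise.

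**Figure D1:**
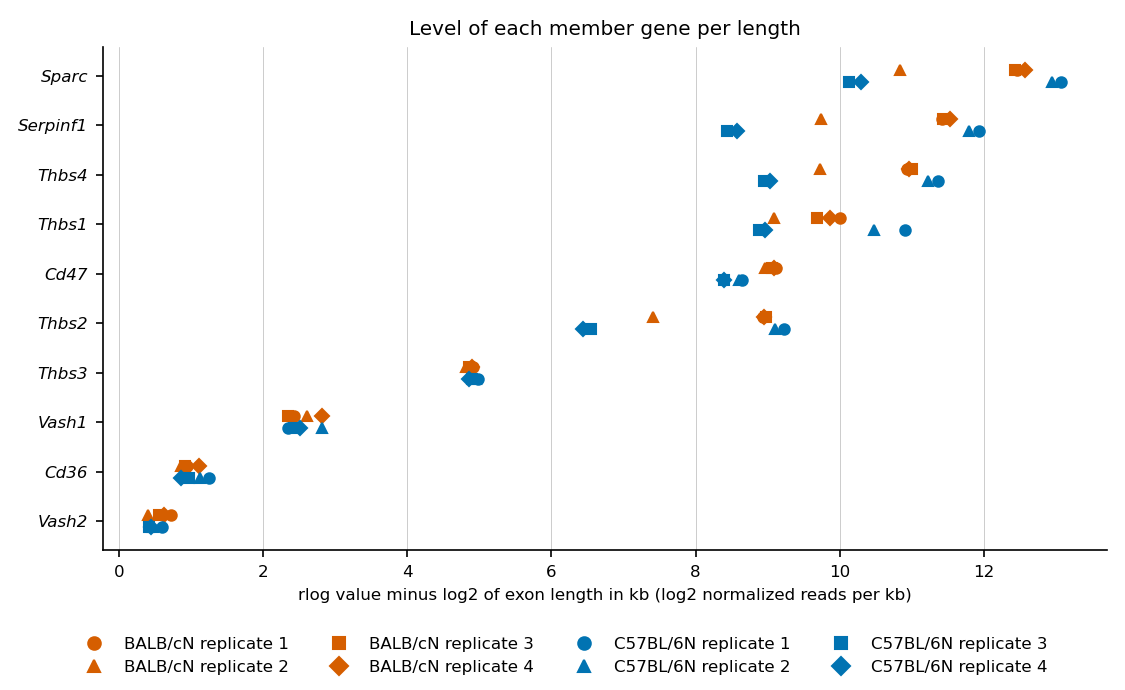
Level of each member in each cornea, as the rlog value minus log2 of the exon length in kb (x axis, log2 normalized reads per kb), with BALB/cN in orange, C57BL/6N in blue and 1 symbol per replicate. Sparc led with a mean of 11.84 and Vash2 was lowest with 0.53, and the points of Sparc, Serpinf1, Thbs4, Thbs1 and Thbs2 spread widely within each strain while those of Cd47 formed 1 tight set per strain.

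Between the strains, 1 of the 10 members, Cd47, passed an adjusted p-value of at most 0.01 (limma with Benjamini-Hochberg adjustment over 25402 genes). The study used the same cutoff on DESeq2 p-values that were recalibrated before adjustment, so the criteria are not the same. Of all genes tested 5.74% passed in either direction and 2.83% were higher in BALB/cN, so 1 member in 10 is near the background. Differences are BALB/cN minus C57BL/6N throughout. The median difference of the members was 0.28 on the rlog scale, against 0.0077 over all genes tested, and with the mean of stromal genes as a covariate it was -0.014, against 0.0037. All 10 members passed the filter on low values, a mean rlog value of at least 0.

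Cd47, the integrin-associated receptor through which thrombospondin-1 signals and which tells phagocytes to spare a cell through SIRPA, was higher in BALB/cN. The gene is ENSMUSG00000055447 (chr16:49800533-49915010, plus strand, GRCm38). It measured 11.76, 11.62, 11.70 and 11.74 in BALB/cN replicates 1 to 4 and 11.30, 11.25, 11.04 and 11.05 in C57BL/6N replicates 1 to 4. Every BALB/cN cornea lay above every C57BL/6N cornea, and the strains were free of overlap, in either direction, in 18.3% of all genes tested. The difference was 0.55 ± 0.0726 (standard error, n = 4 corneas per strain), or 1.46-fold, with a 95% interval of 0.38 to 0.71 (limma, Benjamini-Hochberg adjusted p = 0.00108). An exact two-sided permutation test gave p = 0.0286, the smallest that 4 against 4 corneas allow. Within a strain Cd47 varied little, by 0.145 in BALB/cN and 0.261 in C57BL/6N, and the corneas low in stromal RNA were the lowest of their strain. With the stromal mean as a covariate the difference was 0.49 ± 0.0400 (limma, adjusted p = 1.34e-05), and with the 3 corneas low in stromal RNA left out it was 0.46 (limma, adjusted p = 0.00294). Among the settings that ended the call were leaving out BALB/cN replicates 1 and 4 (0.50, limma, adjusted p = 0.0371) and recalibrating the p-values to an empirical null (adjusted p = 0.494). A block for the replicate number ended the call as well (limma, adjusted p = 0.0133).

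**Figure D2:**
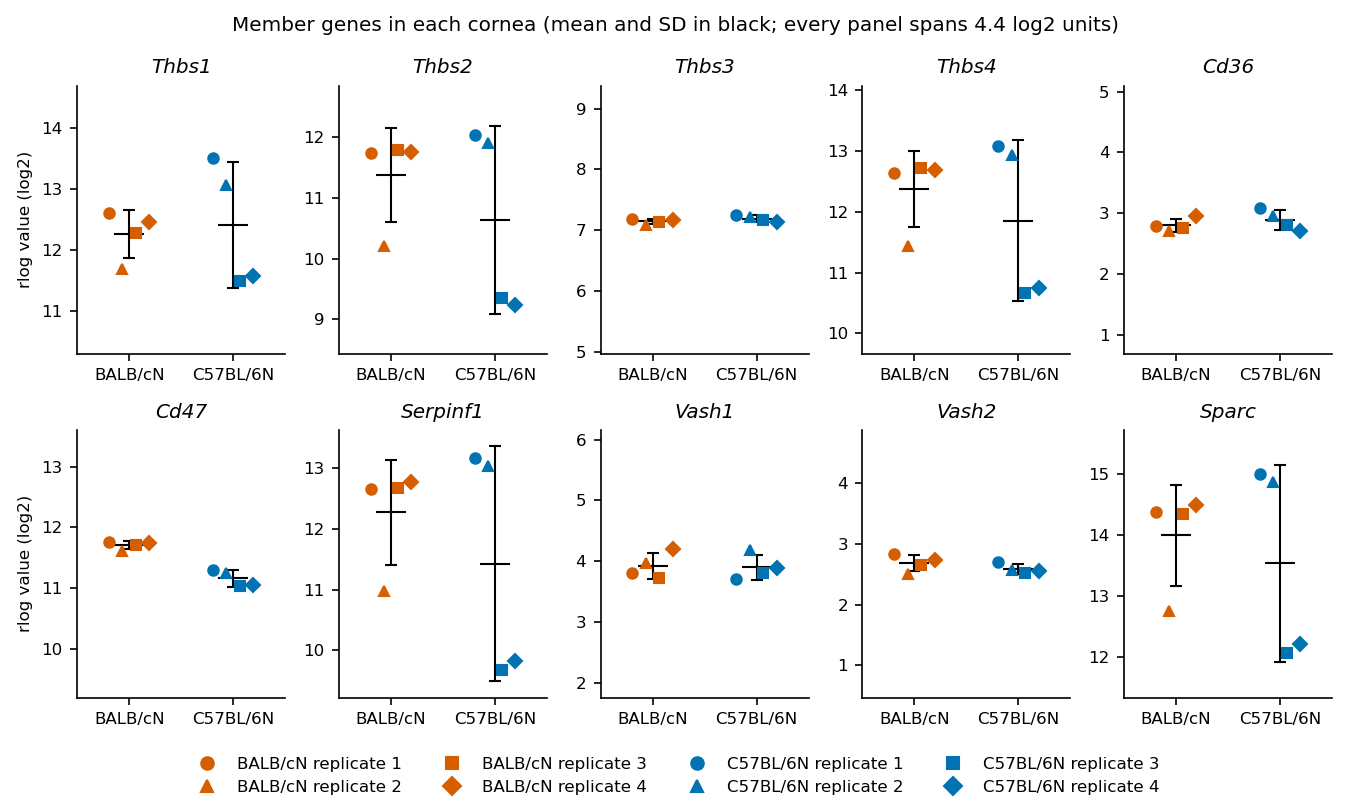
rlog value (y axis, log2) of each of the 10 members in 4 BALB/cN (orange) and 4 C57BL/6N (blue) corneas, 1 symbol per replicate, with the strain mean and SD (n = 4) in black and the same span of log2 units in every panel. Cd47 is the member whose strains do not overlap, with 11.62 to 11.76 in BALB/cN above 11.04 to 11.30 in C57BL/6N, and BALB/cN replicate 2 and C57BL/6N replicates 3 and 4 are the low points of Thbs1, Thbs2, Thbs4, Serpinf1 and Sparc.

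Cd36, the scavenger receptor that binds the type 1 repeats of Thbs1 and Thbs2, was barely detected. The gene is ENSMUSG00000002944 (chr5:17781690-17888801, minus strand). It had rlog values of 2.79, 2.70, 2.76 and 2.96 in BALB/cN and 3.09, 2.96, 2.81 and 2.70 in C57BL/6N. The strains overlapped, with a difference of -0.088 ± 0.0899 and a 95% interval of -0.29 to 0.11 (limma, adjusted p = 0.601). Values of Cd36 this low limit what can be said of a difference, and none was detectable here.

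Thbs1 was a highly expressed thrombospondin whose corneas split within C57BL/6N. The gene is ENSMUSG00000040152 (chr2:118111876-118127133, plus strand). Its rlog values were 12.61, 11.70, 12.28 and 12.47 in BALB/cN and 13.51, 13.07, 11.48 and 11.57 in C57BL/6N. C57BL/6N replicates 1 and 2 lay above all BALB/cN corneas and replicates 3 and 4 below them. The strain difference was -0.15 ± 0.445 with a 95% interval of -1.14 to 0.85 (limma, adjusted p = 0.882). It changed sign without BALB/cN replicate 2 (0.044), C57BL/6N replicate 1 (0.22) or C57BL/6N replicate 2 (0.076). The 208 exonic bases (3.4%) that Thbs1 shares with Gm29233 on the opposite strand are of uncertain origin, since the strand setting of the counting is not given in the sources used here.

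Thbs2, the other trimeric thrombospondin, lies within the locus on chromosome 17 that the study linked to lymphatic vessels. That locus is wide, the study stated that it needed refinement, and Thbs2 is not among the differentially expressed genes it lists there. The gene is ENSMUSG00000023885 (chr17:14665500-14694235, minus strand). It measured 11.74, 10.21, 11.79 and 11.76 in BALB/cN and 12.04, 11.91, 9.35 and 9.24 in C57BL/6N. The strains overlapped because C57BL/6N held both the highest pair and the lowest pair of corneas. The difference in rlog value was 0.74 ± 0.691 with a 95% interval of -0.81 to 2.29 (limma, adjusted p = 0.565). An exact two-sided permutation test gave p = 0.429 for Thbs2.

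Thbs4, a pentameric thrombospondin also known from tendon and heart, was low in the same corneas. The gene is ENSMUSG00000021702 (chr13:92751590-92794818, minus strand). Its rlog values were 12.65, 11.44, 12.72 and 12.68 in BALB/cN and 13.08, 12.94, 10.66 and 10.75 in C57BL/6N. BALB/cN replicate 2 and C57BL/6N replicates 3 and 4 were the low corneas, and the difference of 0.52 ± 0.586 had a 95% interval of -0.80 to 1.83 (limma, adjusted p = 0.641). Thbs3, the other pentamer, was steady instead. The gene (ENSMUSG00000028047, chr3:89215180-89226837, plus strand) had rlog values of 7.18, 7.09, 7.13 and 7.17 in BALB/cN and 7.25, 7.22, 7.16 and 7.13 in C57BL/6N. The difference of Thbs3 was -0.046 ± 0.0707, and its 95% interval of -0.20 to 0.11 was the narrowest among the thrombospondins (limma, adjusted p = 0.743). Thbs3 shares 318 exonic bases (6.6%) with Mtx1 on the opposite strand, so part of its reads is uncertain in the same way.

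Serpinf1 varied most among the members within a strain. The gene is ENSMUSG00000000753 (chr11:75409769-75422701, minus strand). PEDF transcripts measured 12.66, 10.98, 12.67 and 12.77 in BALB/cN and 13.17, 13.04, 9.68 and 9.82 in C57BL/6N. The range of Serpinf1 was 1.79 in BALB/cN and 3.49 in C57BL/6N. Its strain difference of 0.84 ± 0.845 had a 95% interval of -1.06 to 2.74 (limma, adjusted p = 0.594), an interval that spans 0 widely.

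Sparc was the most abundant member. The gene is ENSMUSG00000018593 (chr11:55394500-55423183, minus strand). Osteonectin transcripts measured 14.38, 12.75, 14.35 and 14.49 in BALB/cN and 15.00, 14.87, 12.05 and 12.21 in C57BL/6N. C57BL/6N replicates 1 and 2 were above all BALB/cN corneas and replicates 3 and 4 below all of them, as for Thbs1. The strain difference of Sparc was 0.46 ± 0.725 with a 95% interval of -1.17 to 2.09 (limma, adjusted p = 0.752), and it turned to -0.035 without C57BL/6N replicate 3.

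The vasohibins were weakly expressed and did not separate the strains. Vash1 (ENSMUSG00000021256, chr12:86678700-86692091, plus strand) had rlog values of 3.80, 3.98, 3.73 and 4.20 in BALB/cN and 3.71, 4.19, 3.81 and 3.89 in C57BL/6N. Its difference was 0.025 ± 0.130 with a 95% interval of -0.27 to 0.32 (limma, adjusted p = 0.934), and the sign changed with the centring on each cornea's median and with quantile normalization. Vash2 (ENSMUSG00000037568, chr1:190947646-190979296, minus strand) had rlog values of 2.83, 2.51, 2.66 and 2.73 in BALB/cN and 2.71, 2.57, 2.52 and 2.56 in C57BL/6N. The difference of Vash2 was 0.094 ± 0.0729 with a 95% interval of -0.070 to 0.26 (limma, adjusted p = 0.484). Both genes overlapped between the strains, and at this level a difference was not detectable.

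The matrix genes Serpinf1, Sparc, Thbs2, Thbs4 and Thbs1 tracked the stromal keratocyte genes from cornea to cornea, and none of them is among the 10 genes of that list. In the fit with strain and the stromal mean together, the rlog value of Serpinf1 moved by 1.17 ± 0.0284 per unit of the stromal mean. The slope was 1.01 ± 0.0169 for Sparc, 0.96 ± 0.0262 for Thbs2, 0.81 ± 0.0219 for Thbs4 and 0.60 ± 0.0445 for Thbs1. It was 0.082 ± 0.0173 for Cd47, 0.035 ± 0.0309 for Thbs3 and 0.020 ± 0.0583 for Vash1. The slopes describe 8 corneas that fall into a set of 5 rich in stromal RNA and a set of 3 low in it, so they rest mainly on the gap between these sets.

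**Figure D3:**
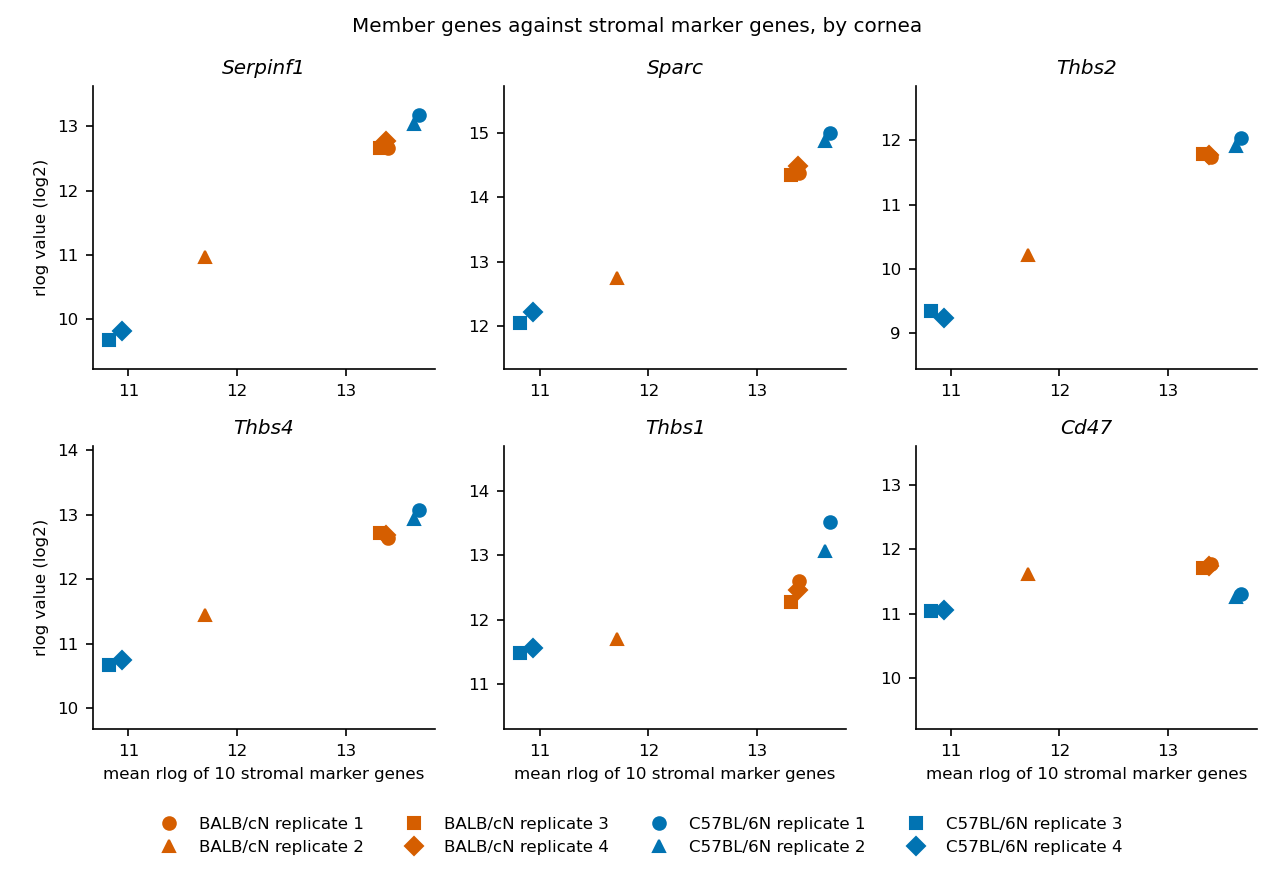
rlog value (y axis, log2) of 6 members against the mean rlog value of 10 stromal keratocyte genes (x axis, log2), 1 point per cornea, BALB/cN in orange and C57BL/6N in blue. Serpinf1, Sparc, Thbs2, Thbs4 and Thbs1 are low in the 3 corneas with a stromal mean of 10.82 to 11.71, with slopes of 0.60 to 1.17, whereas Cd47 moves little within a strain, with a slope of 0.082.

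With the stromal mean as a covariate, 3 of the 10 members were called, Cd47 higher and Thbs1 and Sparc lower in BALB/cN. Of all genes tested 9.38% were called in this fit and 4.71% were lower. Thbs1 fell by 0.56 ± 0.103 in BALB/cN relative to C57BL/6N at a given stromal mean (95% interval -0.78 to -0.33, limma with Benjamini-Hochberg adjustment, adjusted p = 0.00385). Sparc fell by 0.23 ± 0.0390 (95% interval -0.32 to -0.14, adjusted p = 0.00226 from limma). The intervals of the other members that tracked the stromal genes narrowed without a call, with 0.085 ± 0.0606 for Thbs2, -0.039 ± 0.0507 for Thbs4 and 0.042 ± 0.0657 for Serpinf1. The intervals in this fit were -0.049 to 0.22 for Thbs2, -0.15 to 0.074 for Thbs4 and -0.10 to 0.19 for Serpinf1.

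The covariate assumes 1 straight line for both strains, so the comparison was also made among the 3 BALB/cN and 2 C57BL/6N corneas rich in stromal RNA alone. Sparc then differed by -0.53 (limma, adjusted p = 0.00437) and was called lower in BALB/cN. Thbs1 differed by -0.84 (limma, adjusted p = 0.0205), Serpinf1 by -0.40 (adjusted p = 0.0114), Thbs4 by -0.32 (adjusted p = 0.0189) and Thbs2 by -0.21 (adjusted p = 0.067), none of which passed 0.01. In each of these genes both C57BL/6N corneas lay above all 3 BALB/cN corneas. These C57BL/6N corneas also had the highest stromal means, 13.68 and 13.63 against 13.32 to 13.39, and the part of that gap in the result was not tested beyond the covariate. Among the corneas low in stromal RNA, the single BALB/cN cornea was above both C57BL/6N corneas, for example with 12.75 against 12.05 and 12.21 for Sparc and 11.70 against 11.48 and 11.57 for Thbs1, and its stromal mean was higher as well.

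**Figure D4:**
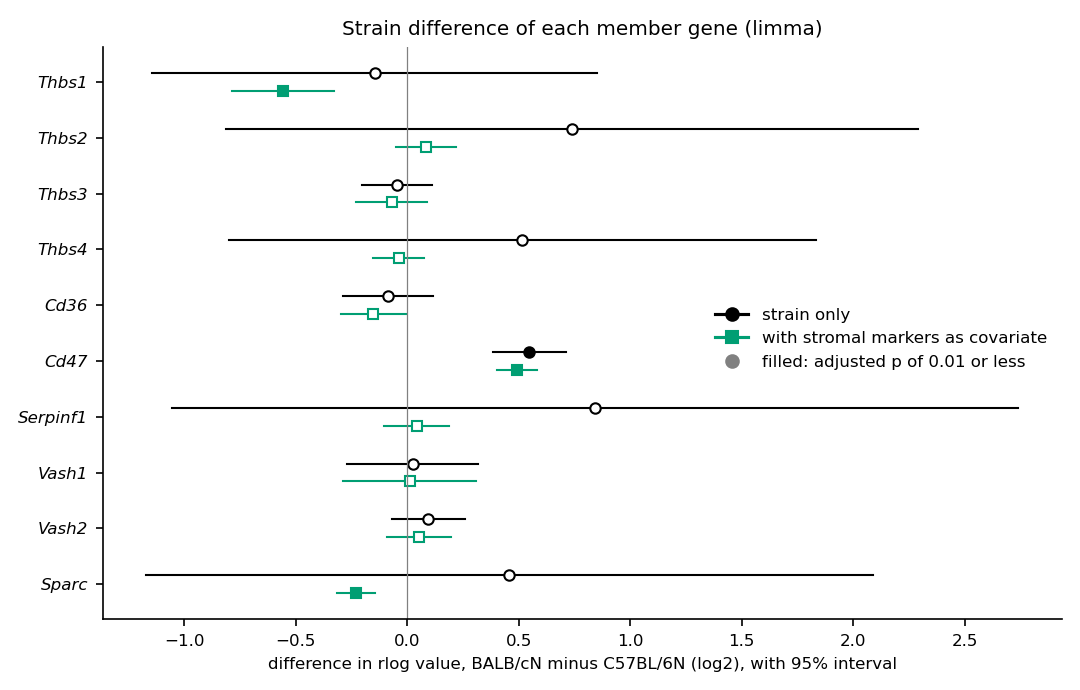
Difference in rlog value, BALB/cN minus C57BL/6N (x axis, log2), of each member with its 95% interval from limma, for the comparison of strains alone (black circles) and with the mean of 10 stromal genes as a covariate (green squares). Filled symbols passed an adjusted p-value of 0.01, which are Cd47 in both fits and Thbs1 (-0.56) and Sparc (-0.23) with the covariate only.

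The genes nearest to each member in pattern were found by Pearson's r over the 8 corneas, after each value was centred on its strain mean, among 18762 genes with a mean of at least log2(10). Nearest to Thbs2 were the gelatinase Mmp2 (r = 0.9998), Col5a2 and Cdh2. Cdh2 belongs to the corneal endothelium list, whose mean was also lowest in the corneas low in stromal RNA. Thbs4 was nearest to Steap4, Arhgef6 and Col6a2, Serpinf1 to Tmem132c, Plod1 and Smoc2, and Sparc to Ltbp1, Plod1 and Smoc2. Plod1, a lysyl hydroxylase of collagen, and Smoc2, a relative of Sparc, thus appeared beside both Serpinf1 and Sparc. For these 4 members r lay between 0.9992 and 0.9998, and every such value rests on the gap between corneas rich and low in stromal RNA.

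Thbs1 and its receptor Cd47 were among each other's nearest genes. Cd47 was the second in the order of Thbs1 (r = 0.9963), after Nptxr (0.9966) and before Fut8 (0.996), and Thbs1 was the second in the order of Cd47, after Erp27 (0.9978) and before Fut8 (0.9955). The centred values of Cd47 spanned far less than those of Thbs1, since the within-strain ranges were 0.145 and 0.261 for Cd47 against 0.914 and 2.03 for Thbs1. Thbs3 was nearest to Gm47644 (0.9938), Peg12 and Pcdhb7, and Vash1 to Platr7 (0.964), Rgs2 and Cdh3. These values too rest on the same 8 corneas and, for Thbs1 and Cd47, on the gap between those rich and low in stromal RNA. Cd36 and Vash2 were below the mean needed and were not compared.

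Receptors and partners of the members were examined as a list of 27 genes, of which 2 were called higher and 2 lower in BALB/cN and 23 were not called. Of all genes tested 5.74% were called in either direction. The median difference of this list was -0.019, against 0.0077 over all genes tested. Higher in BALB/cN was Tgfb1, the latent growth factor that thrombospondin-1 can activate, with 11.57, 11.54, 11.78 and 11.66 against 11.11, 11.17, 10.95 and 10.84 in C57BL/6N. The strains did not overlap, and the difference of Tgfb1 was 0.62 ± 0.0847 (limma, adjusted p = 0.00126). Scarb1, a lipoprotein receptor of the CD36 family, was higher by 0.50 ± 0.0627 (limma, adjusted p = 0.000737), with 10.64 to 10.82 in BALB/cN and 10.13 to 10.32 in C57BL/6N. With each cornea centred on its median, Scarb1 kept a difference of 0.43 but not the call (limma, adjusted p = 0.0161).

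Lower in BALB/cN were an integrin and a tubulin. Itga6, the alpha chain of a laminin-binding integrin of basal epithelium that also binds thrombospondins, measured 13.30, 13.54, 13.46 and 13.32 against 13.76, 13.84, 13.90 and 13.98. Its difference was -0.47 ± 0.0697 without overlap of the strains (limma, adjusted p = 0.00216), and with each cornea centred on its median it was -0.54 and not called (limma, adjusted p = 0.0191). The call of Itga6 was also lost with the empirical null (limma, adjusted p = 0.493) and the replicate block (limma, adjusted p = 0.0168). Leaving out BALB/cN replicates 1 and 4 ended it as well (limma, adjusted p = 0.0412). Tuba1a, an alpha-tubulin of the kind that vasohibins act on, differed by -0.47 ± 0.0916 (limma, adjusted p = 0.00987). The call of Tuba1a was lost with any of BALB/cN replicates 1 to 3 and C57BL/6N replicates 2 to 4 left out alone (adjusted p from 0.0282 to 0.0362), and reads may be split between Tuba1a and its near-identical paralogs. The most abundant partner, the heparan sulfate proteoglycan Sdc1, had 15.20 to 15.43 over all corneas and a difference of 0.065 ± 0.0643 (limma, adjusted p = 0.590). Sirpa, the counter-receptor of Cd47, had 11.25 to 11.42 in BALB/cN and 10.94 to 11.17 in C57BL/6N, and its difference of 0.25 ± 0.0675 did not pass 0.01 (limma, adjusted p = 0.0443). Sirpa was picked from the list for its tie to Cd47 after the values were seen.

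None of the 10 family relatives of the members was called (Comp, Sparcl1, Smoc1, Smoc2, Spock1, Spock2, Spock3, Fstl1, Serpinf2 and Scarb2), against 5.74% of all genes tested. Their median difference was 0.30 and 9 of 10 differences were positive, as were 13406 of 25402 over all genes tested, and with the stromal covariate their median was 0.080. The most abundant, the lysosomal receptor Scarb2 of the CD36 family, measured 12.13 to 12.26 in BALB/cN and 12.08 to 12.14 in C57BL/6N and differed by 0.12 ± 0.0464 (limma, adjusted p = 0.152). With the stromal covariate 1 of the 10, Smoc2, was called higher in BALB/cN, by 0.38 ± 0.0514 (limma, adjusted p = 0.000517). In this fit 9.38% of all genes tested were called in either direction. Among the corneas rich in stromal RNA the strains overlapped in Smoc2, with 10.9976 to 11.0871 in BALB/cN against 10.8751 and 11.0111 in C57BL/6N. Among those low in it, the BALB/cN cornea had 9.8201, against 8.655 and 8.7359 in C57BL/6N. The call assumes 1 straight line for both strains, and the part of the low corneas in it was not tested. Smoc2 (chr17:14279506-14404790) lies near Thbs2 in the same wide locus, and the study does not list it among the differentially expressed genes there either.

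Of 22 other inhibitors of vessel growth 20 passed the filter on low values, Plg and Hrg did not, and 1 was called. Tnfsf10, the death ligand TRAIL, had rlog values of 7.73, 8.0, 7.74 and 8.34 in BALB/cN and 6.00, 5.55, 5.47 and 5.61 in C57BL/6N. The strains were far apart, by 2.30 ± 0.161 (limma, adjusted p = 1.82e-05). The study's introduction names TRAIL as a regulator of lymphatic growth found earlier by comparing expression in corneas of the same strains. Its call, also counted in the totals below, is therefore not a new finding of this list. The median difference of this list was 0.34, and 0.11 with the stromal covariate. Dcn, the stromal proteoglycan decorin, was the most abundant inhibitor and belongs to the stromal list as well. It measured 15.60, 12.91, 15.46 and 15.61 in BALB/cN and 16.08, 15.98, 12.07 and 12.24 in C57BL/6N and differed by 0.80 ± 1.04 (limma, adjusted p = 0.687). Over the 3 lists 14 of 57 genes did not overlap between the strains, against 18.3% of all genes tested, and 5 of 57 were called, against 5.74%. With the stromal covariate 6 of the 57 were called higher and 7 lower, against 9.38% of all genes in either direction.

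**Figure D5:**
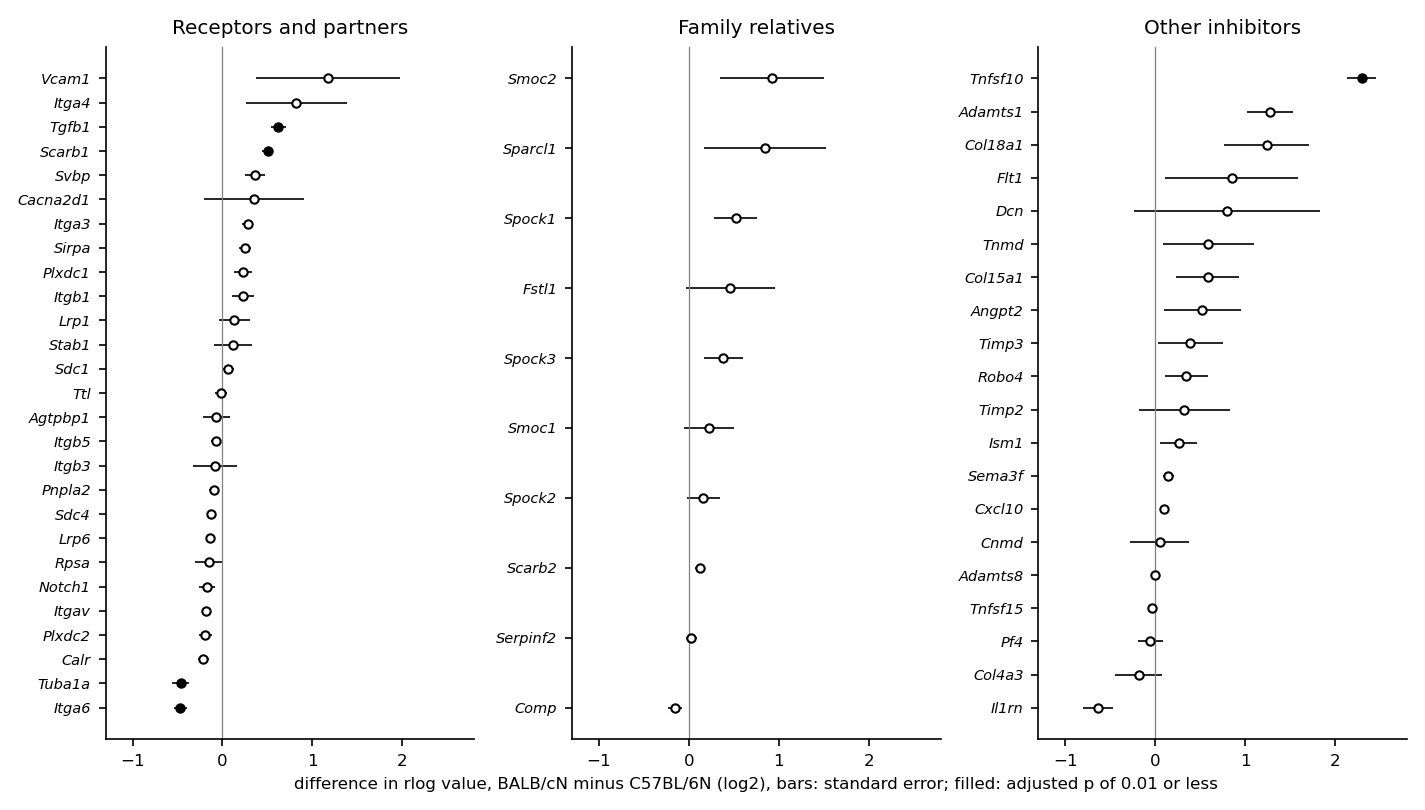
Difference in rlog value, BALB/cN minus C57BL/6N (x axis, log2), with its standard error from limma, of the tested genes among receptors and partners (27), family relatives (10) and other inhibitors (20). Filled points passed an adjusted p-value of 0.01, which are Tgfb1, Scarb1, Tuba1a and Itga6 among the partners and Tnfsf10 at 2.30 among the inhibitors, while wide bars mark genes that vary within a strain, such as Vcam1 and Dcn.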

How the data were processed

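Strand-specific libraries were made from total RNA of 8 corneas, 4 of each strain, and sequenced as paired reads. The authors removed adapters, filtered out rRNA and tRNA, aligned reads to strain pseudo-genomes derived from GRCm38, and counted them on the exons of Ensembl genes. The submitters' processing notes name TopHat2 2.1.1, HTSeq 0.7.1 and DESeq2 1.30. The table that the authors deposited holds DESeq2 rlog values, on a log2 scale, for 54532 genes, and 23218 of them are listed at 0 in every cornea. It holds no read counts, so the study's count test could not be run and precision rests on the spread between corneas. The labels spell the strain Balb/c. All columns were matched to corneas by the labels, 0 columns were left unused, and 0 pairs of corneas held identical values.

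Strains were compared with limma 3.58.1 in R 4.3.3 (lmFit, then eBayes with trended variances) over the 25402 genes whose mean rlog value was 0 or higher, with Benjamini-Hochberg adjustment. Genes were called at an adjusted p-value of 0.01, the threshold of the study. Single genes were also compared with exact two-sided permutation tests in scipy 1.17.1. The covariate was the mean rlog value of 10 stromal keratocyte genes. Exon lengths, positions and overlaps came from the GENCODE annotation of GRCm38 (Ensembl 96), and all 157 listed genes matched 1 row each. The procedure was tested on simulated data with noise drawn separately for each gene. The simulated corneas thus lacked the shared differences in stromal RNA, and the result does not carry over to them. It called 22 of 50 changes of 0.5 on the log2 scale, so real differences of that size can be missed.

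Named are all 10 members, the called genes of the lists of partners, family relatives and other inhibitors, the gene of highest mean rlog value in each of these lists, and the 3 genes most alike in pattern to each member with a mean of at least log2(10). Smoc2 and Sirpa were added after their values were seen. The members and lists were chosen with earlier results of these data known. Alternatives were no variance trend, a robust fit, other filters on the mean, median centring, quantile normalization, the stromal covariate, a replicate block, an empirical null, an adjusted p-value of 0.05 and each cornea left out. Leaving out the corneas with lens and pigment transcripts or those low in stromal transcripts was chosen after seeing the data.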

Additional observations from a re-analysis of the deposited data

Results flagged for a closer look

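In 6 of 36 groups of 4 corneas examined for the named genes, 1 cornea lay far from the other 3, where chance flags about 1 in 20 groups, or 1.8 here. In 5 of these groups the cornea was BALB/cN replicate 2, which was low in stromal RNA. The gap between this cornea and the nearest of the others made up 0.97 of the range of Thbs2 in BALB/cN, 0.941 of that of Thbs4, 0.941 of that of Serpinf1, 0.922 of that of Sparc and 0.945 of that of Dcn, each above the critical value of Dixon's test for 4 samples. The 5 genes vary together, so these are not separate findings. Without BALB/cN replicate 2 the strain difference was 1.13 for Thbs2, 0.83 for Thbs4, 1.27 for Serpinf1, 0.87 for Sparc and 1.46 for Dcn, and none was called by limma. The remaining group was Scarb2 in BALB/cN, where replicate 3 was the lowest, with a gap of 0.892 of the range. Without that cornea the difference of Scarb2 was 0.15. In C57BL/6N replicates 3 and 4 were low together, and a test for single corneas does not pick up such a pair.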

How the results depend on the processing

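Of 198 comparisons of a member's strain difference with an alternative, 176 kept direction and side of the threshold, 3 lost the call, 1 gained one in the same direction and 18 changed direction, 2 of them (both Sparc) with a call as lower. For the other named genes, 132 of 160 kept both, 25 lost the call and 3 changed direction, 1 of them (Dcn) with a call as lower. Where no cause is named, it was not tested.

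After recalibration to the empirical null, 0 genes were called by limma, hence 0 members and 0 of the list genes, while 1725 genes had an unadjusted p under 0.05, the smallest adjusted p was 0.0946 and Cd47 (0.55) had an adjusted p of 0.494. With the replicate block 554 genes, 0 members and 1 list gene were called, and Cd47 (0.55) had an adjusted p of 0.0133. The labels give both strains the numbers 1 to 4 and do not say whether same-numbered corneas were handled together. The deviations of same-numbered corneas from their strain means had r of 0.31, -0.53, -0.20 and -0.45. The differences in stromal RNA enter these values, so they cannot tell whether such corneas shared a batch. With the stromal covariate 2383 genes, 3 members and 13 list genes were called, Thbs1 (-0.56) gained a call, and the differences of Thbs4 (-0.039), Sparc (-0.23) and Dcn (-0.18) became negative. At an adjusted p of 0.05, 2842 genes and 11 list genes were called. Median centring gave 958 genes, 413 higher and 545 lower against 718 and 740, and turned Vash1 to -0.049 and Sdc1 to -0.0090. Quantile normalization turned Vash1 to -0.0070.

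Without the corneas with lens and pigment transcripts, which leaves 2 BALB/cN corneas, 447 genes, 0 members and 1 list gene were called. Cd47 was then 0.50, Vash1 -0.049 and Vash2 -0.0031. Without the corneas low in stromal transcripts 852 genes and 2 members were called, and the differences of Thbs2 (-0.21), Thbs4 (-0.32), Serpinf1 (-0.40), Sparc (-0.53), Vash1 (-0.043) and Dcn (-0.47, adjusted p = 0.00632 from limma) became negative.

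With each cornea left out in turn, 953 to 1163 genes were called, the fewest without C57BL/6N replicate 4. Thbs1 ranged from -0.45 to 0.22 and was positive without BALB/cN replicate 2 or C57BL/6N replicates 1 or 2. Vash1 ranged from -0.066 to 0.12 and was negative without BALB/cN replicate 4 or C57BL/6N replicates 1 or 3. Sparc ranged from -0.035 to 0.95 and was negative without C57BL/6N replicate 3. Cd47 ranged from 0.51 to 0.59 and stayed called in each.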
